A study of Salmo salar with 6 samples.

Results

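Genes for heat shock proteins and other folding chaperones were examined in the head kidney of Atlantic salmon (Salmo salar), the fish organ that makes blood cells, holds lymphoid tissue and carries the steroid-producing interrenal cells. The genes were chosen by symbol alone: every RefSeq symbol that starts with hsp, dnaj, pdia, serpinh, canx, calr, hyou or manf, with cct or bag followed by a digit, or that equals tcp1. Of 65 symbols in the reference table that met this rule, 50 had a probe on the array, each with a single probe, and 15 had none, among them cct4, pdia3, hspa13 and hsp30. Salmon genes that carry only a locus number could not be found this way. The symbols hspa5, hyou1, pdia6, calr, hspd1, hspe1 and hspa9 were not among the 65, so these textbook chaperones were not measured here. The 50 genes were sorted by where their proteins work: 26 cytosolic, 13 of the endoplasmic reticulum (ER), 5 of the chaperonin, 4 mitochondrial, and 2 (hspb11 and hspbap1) that share the name but are not folding chaperones. Genes with no firmly known place, such as dnajc28 and dnajc4, were left with the cytosolic ones.

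The fish were juveniles of 252 g. For 133 days one group received a basal feed (control, 0% inclusion) and the other the same feed with 0.1% MPLE, a sage and lemon verbena additive that holds ursolic acid, other triterpenic compounds, verbascoside and polyphenols. RNA was taken from 18 fish per diet and pooled by 6, giving 3 pools per diet, each hybridised to 1 one-colour Agilent array. A pool averages its fish, so differences between individual fish were not measured. Signals are log2 values relative to the array's 75th percentile, and changes are MPLE minus control. Tissue was measured in bulk, so fewer cells of a type and less RNA per cell cannot be told apart.

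Chaperones bind proteins that are not yet folded or have lost their fold. In the cytosol, HSP70 proteins hold exposed stretches of a chain, J-domain proteins of the DNAJ families deliver clients and drive ATP hydrolysis, and BAG proteins release the nucleotide, while HSP90 completes the folding of kinases and receptors. The TCP-1 ring complex is a closed double-ring chamber in which actin, tubulin and other proteins fold. In the ER, calnexin and calreticulin hold glycoproteins, protein disulfide isomerases form and shuffle disulfide bonds, and HSP47 (serpinh1) escorts collagen. Cells that secrete much protein, such as plasma cells, are rich in the ER set.

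The arrays of the diets differed as a whole. The 75th percentile of the processed signal ran from 133 to 468 intensity units on control arrays and from 485 to 709 on MPLE arrays. The count of spots well above background was lowest in control pool 3 (18046) and highest in MPLE pool 2 (33020). Control and MPLE arrays shared 0 slides and 0 slide positions, and all control arrays were scanned earlier. Diet therefore cannot be told apart from slide, position or scan order. Of the 10 probes for spike-in RNA, added during labelling, E1A_r60_3 and E1A_r60_n9 were 2.91 and 2.15 higher on MPLE arrays on this scale, while the other 8 differed by -0.49 to 0.71. Interrenal markers were present on both diets, with star, the cholesterol carrier of steroid synthesis, at 6.85 to 7.33 in control pools and 7.28 to 7.49 in MPLE pools. Its change of 0.34 was the largest of the 5 interrenal markers tested. Of these 5, 2 had a change above 0, and the median was -0.03.

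No chaperone gene passed the adjusted threshold of 0.05 between the diets (limma, Benjamini-Hochberg over 23130 probes). The lowest adjusted p was 0.104. Of all 15507 genes tested at 1 probe per gene, 0.303% passed. The filter on dim probes required that all 3 arrays of the control or of the MPLE diet detect a probe well above background, and it kept 36 of the 50 genes, 31 of them well above background on all 6 arrays. At an unadjusted p under 0.05, 6 of these 36 (16.7%) were higher with MPLE, beside 10.5% of all genes, and 0 were lower, beside 4.78% of all genes. With the arrays centred on the spike-in probes instead, 2 were higher and 11 lower, beside 4.02% and 31.6% of all probes. This centring takes the mean of all spike-in probes, with E1A_r60_3 and E1A_r60_n9 (2.91 and 2.15 higher on MPLE arrays) included. It shifted the median gene by -0.44. The 6 higher relative to the 75th percentile were pdia5, canx and manf of the ER, hspa8 and dnajb6b of the cytosol, and dnajc19 of the mitochondrion. Among these 6, pdia5 and dnajb6b were well above background on 2 control arrays and passed the filter through the MPLE arrays only. The shares of all genes rest on the same filter. When every array had to detect a probe, 8.73% of 16868 probes were higher and 8.55% lower at an unadjusted p under 0.05. Of the 31 chaperone genes then tested, which leave out pdia5 and dnajb6b, 6 were higher and 1 was lower. The median log2 change was -0.03 over the 36 and -0.02 over all genes. In 7 of the 36 every MPLE pool lay above every control pool, and in 3 every MPLE pool lay below. That is 19.4% and 8.33%, beside 16% and 11% of all genes.

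**Figure D1:**
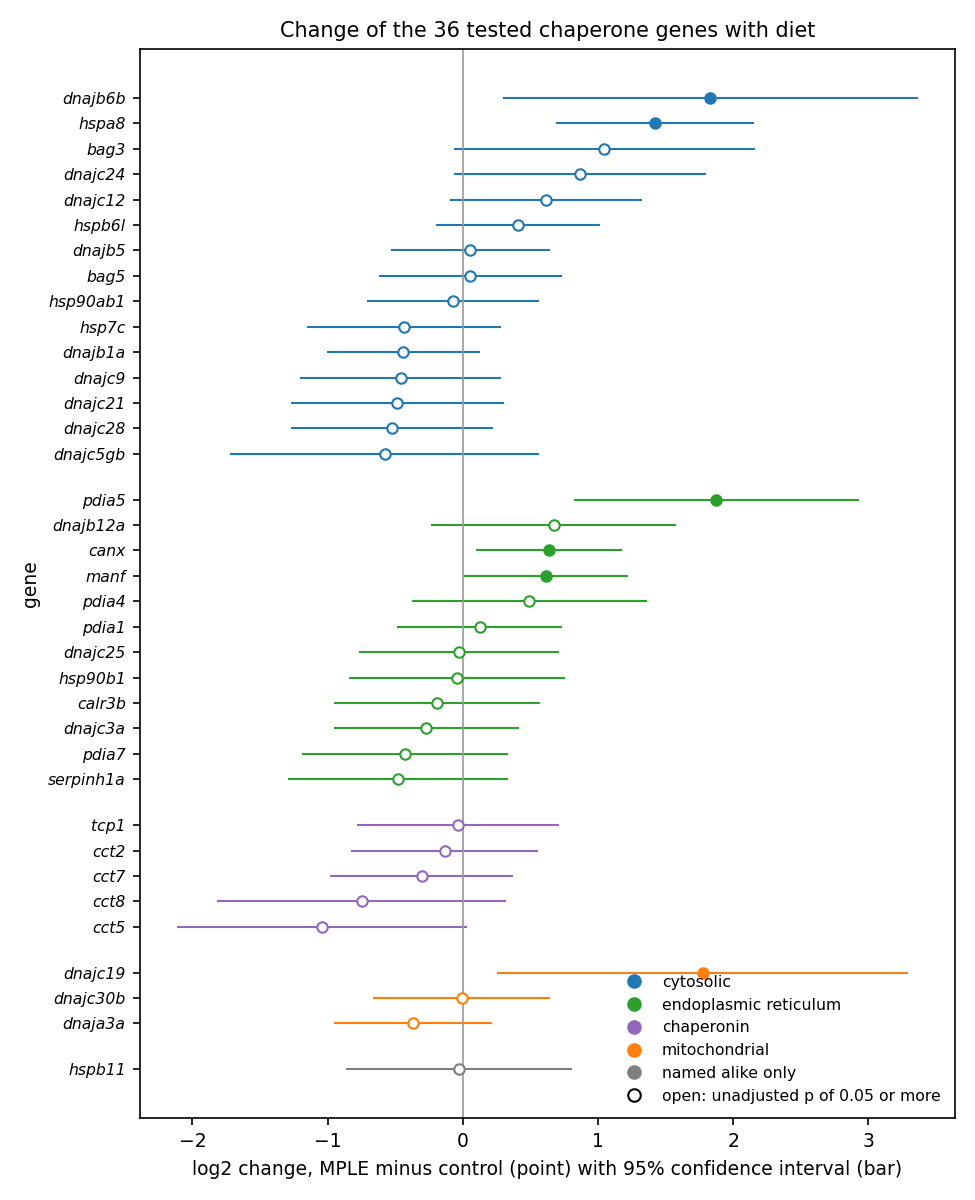
Log2 change (MPLE minus control, x axis) of the 36 chaperone genes tested, 1 line per gene, grouped and coloured by location; bars are 95% confidence intervals from the limma fit and filled points have an unadjusted p under 0.05. The 6 filled points lie at 0.62 to 1.88, and the 5 chaperonin genes lie between -1.04 and -0.04.

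Among the 15 cytosolic genes tested, the constitutive HSP70 gene hspa8 had the lowest unadjusted p, 0.00305. Its level was 7.25 and 7.00 in control pools 1 and 2 and 8.32, 8.81 and 8.50 in MPLE pools 1, 2 and 3. The spot of control pool 3 was flagged as an outlier and left out, and its value, had it been kept, was 6.91. The pools of the diets did not overlap, and the means were 7.12 ± 0.18 (SD, n = 2) and 8.54 ± 0.25 (SD, n = 3). The log2 change of 1.42 (SE 0.30), a 2.67-fold difference, had an adjusted p = 0.104 by limma, and its 95% interval ran from 0.69 to 2.15. The change ran from 0.68 after quantile normalization to 2.02 in the deposited series values. The spike-in probe E1A_r60_n9 was higher on the same arrays (5.61 to 6.94 against 8.44 to 8.58) and E1A_r60_n11 was not (7.29 to 8.17 against 7.48 to 7.68), and the part of such differences in the change of hspa8 was not tested.

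A second constitutive HSP70 gene, hsp7c, named here after its values were seen, lay on the other side of 0. It was at 2.29, 1.77 and 2.31 in control pools and 1.27, 2.02 and 1.79 in MPLE pools, a change of -0.44 with a 95% interval of -1.15 to 0.28. The pools overlapped. The change was 0.61 in the deposited series values. Near-identical copies of these genes may share a probe, and that was not tested. The stress-inducible HSP70 gene on the array, hspa1b, was not well above background on any of the 6 arrays.

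The HSP90 gene hsp90ab1 was at 8.14, 7.70 and 8.33 in control pools and 7.79, 8.04 and 8.12 in MPLE pools. Its change of -0.07 had a 95% interval of -0.71 to 0.56. The change depended on the scaling, with -0.76 after quantile normalization (adjusted p = 0.14 by limma) and 1.19 in the deposited series values, and it kept its sign in 13 of 18 alternatives.

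J-domain genes pointed both ways. The level of dnajb6b, whose human protein holds back the aggregation of polyglutamine chains, was -3.00, -1.27 and -4.00 in control pools and -0.91, -0.58 and -1.28 in MPLE pools. Among control pools, 1 and 2 gave a signal well above background, and control pool 2 reached the lowest MPLE pool. The change was 1.83 (SE 0.65, unadjusted p = 0.0255, adjusted p = 0.223 by limma). It was 1.21 without control pool 3 (unadjusted p = 0.0664 by limma) and 0.50 after normexp background correction.

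The stress-responsive HSP40 gene dnajb1a was at 1.67, 1.80 and 1.84 in control pools and 1.11, 1.54 and 1.35 in MPLE pools. Every MPLE pool lay below every control pool, with a change of -0.44 (SE 0.24, adjusted p = 0.374 by limma). The lowest changes of the class were those of dnajc28 at -0.52 and dnajc5gb, a cysteine-string protein gene, at -0.58 (adjusted p = 0.413 and 0.535 by limma). That of dnajc5gb was -0.98 without control pool 1 and -0.14 without control pool 2, and that of dnajc28 was -0.29 without control pool 3. The filter kept dnajc28 through the control arrays only and dnajc5gb through the MPLE arrays only. The remaining cytosolic J-domain genes ran from -0.49 (dnajc21) to 0.87 (dnajc24), with unadjusted p from 0.0645 to 0.826.

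The co-chaperone bag3, which exchanges nucleotide on HSP70 and passes clients to autophagy, was at -0.45, -1.30 and -2.35 in control pools and -0.40, -0.45 and -0.11 in MPLE pools. The MPLE pools lay close together and just above control pool 1. The change was 1.05 (SE 0.47, adjusted p = 0.309 by limma), 0.55 without control pool 3 and 0.30 after normexp correction. The related bag5 changed by 0.06, with a 95% interval of -0.62 to 0.73. The small heat shock gene hspb6l had a change of 0.41 (adjusted p = 0.427 by limma), which was -0.37 after normexp correction. Over the 15 cytosolic genes the median change was 0.06, with 8 above and 7 below 0.

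**Figure D2:**
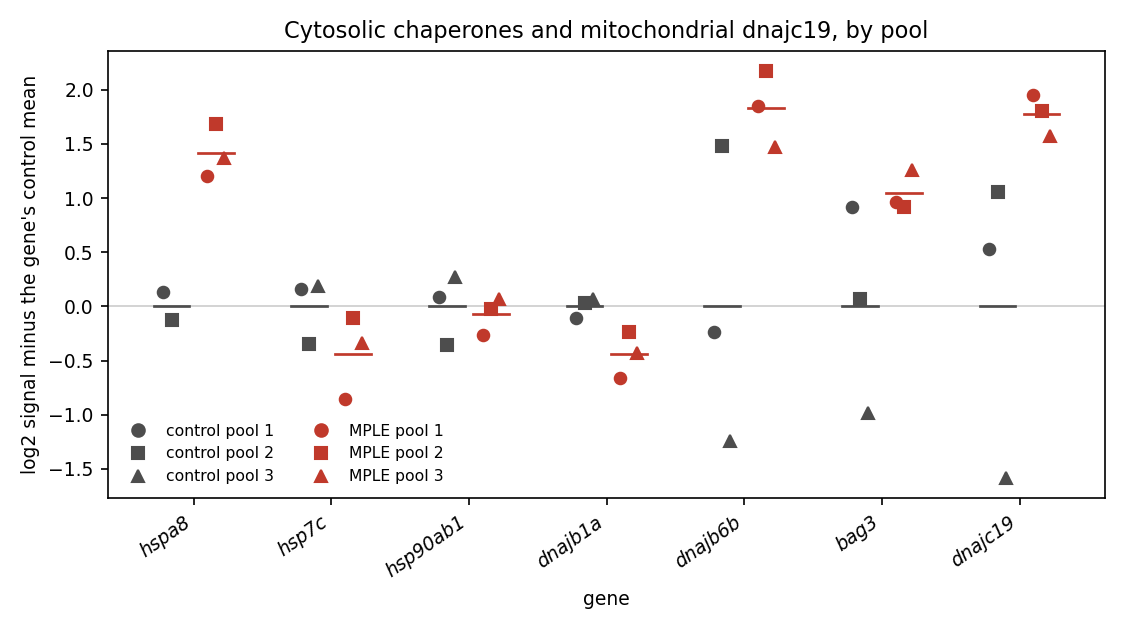
Log2 signal of 6 cytosolic chaperone genes and of mitochondrial dnajc19 in each pool, less the mean of that gene's control pools (y axis), with grey control and red MPLE points, symbols for pool number and lines at the means. The MPLE pools of hspa8 lie apart from both control pools, and control pool 3 is the lowest point for dnajb6b, bag3 and dnajc19.

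Of the 12 ER genes tested, 3 (25%) were higher with MPLE at an unadjusted p under 0.05, beside 10.5% of all genes, and 0 were lower, beside 4.78%. Of the 15 cytosolic genes, 2 (13.3%) were higher and 0 were lower. The ER genes pdia5, among these 3, and dnajb12a were well above background on 2 control arrays. They passed the filter through the MPLE arrays only, as did dnajb6b, among the 2 cytosolic genes. The median change of the ER genes was 0.05, and it was -0.04 over those well above background on all 6 arrays. The glycoprotein-binding membrane chaperone canx (calnexin) was at 3.84, 3.86 and 4.04 in control pools and 4.49, 4.70 and 4.47 in MPLE pools. The pools did not overlap and spread little, with means of 3.91 ± 0.11 and 4.55 ± 0.13 (SD, n = 3 each). The change of 0.64 (SE 0.23), or 1.56-fold, had an adjusted p = 0.228 by limma and ran from 0.20 with spike-in centring to 1.44 in the deposited series values. Its soluble relative calr3b, of the calreticulin family and named after its values were seen, was at 3.20, 2.49 and 3.27 in control pools and 2.41, 3.08 and 2.91 in MPLE pools, a change of -0.19 with a 95% interval of -0.95 to 0.57. The pools of calr3b overlapped.

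The disulfide isomerase gene pdia5 was at -2.65, -1.73 and -3.50 in control pools and -0.95, -0.56 and -0.74 in MPLE pools. Every MPLE pool lay above every control pool, and control pool 3 gave no signal well above background. The change of 1.88 (SE 0.45), or 3.67-fold, had an adjusted p = 0.114 by limma. It was 1.44 without control pool 3 and 0.87 after normexp correction. Of the other isomerases, pdia4 had a change of 0.49, pdia1 of 0.13 and pdia7 of -0.43, with 95% intervals that all included 0. The pools of pdia4 overlapped, at 3.31, 2.16 and 2.20 in control and 2.81, 3.24 and 3.09 in MPLE. Its change was 0.87 without control pool 1, 0.29 without control pool 2 and 1.16 after normexp correction. Both pdia4 and pdia5 had a change of 2.02 in the unscaled deposited values.

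The ER stress factor manf, which is retained in the ER and secreted under stress, was at 2.34, 1.96 and 1.72 in control pools and 2.54, 2.68 and 2.65 in MPLE pools. The pools did not overlap, and the change was 0.62 (SE 0.26, unadjusted p = 0.047, adjusted p = 0.281 by limma). Without control pool 3 it was 0.48 (unadjusted p = 0.0643 by limma). The HSP90 of the ER, hsp90b1, was at 1.06, 0.71 and 1.76 in control pools and 0.89, 1.44 and 1.07 in MPLE pools. Its change of -0.04 had a 95% interval of -0.84 to 0.76. The J-domain genes of the ER ran from -0.27 (dnajc3a, whose protein restrains the kinase PERK) through -0.03 (dnajc25) to 0.67 (dnajb12a), and dnajb12a was at -0.17 after normexp correction.

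The collagen chaperone serpinh1a was at 2.13, 1.46 and 2.52 in control pools and 1.21, 1.77 and 1.69 in MPLE pools, a change of -0.48 with a 95% interval of -1.29 to 0.33. The pools overlapped, and the change was -0.77 without control pool 2 and -0.24 without control pool 3. Of 4 fibroblast and matrix markers tested, 1 was higher at an unadjusted p under 0.05, beside 10.5% of all genes. That was the collagen gene col1a1b at 3.49, 3.35 and 2.15 in control pools and 3.78, 4.52 and 4.34 in MPLE pools (adjusted p = 0.213 by limma). The collagen genes col1a1a and col5a2a had changes of 1.35 and 0.19, and the matrix proteoglycan gene lum had one of -0.68 (unadjusted p = 0.0524 by limma). The summed level of the 4, in multiples of the 75th percentile, was 11.7 to 22 in control pools and 21.1 to 34.7 in MPLE pools. The part of such cells in the value of serpinh1a was not tested. The summed level of the 4 B lymphocyte and plasma cell markers tested was 26.7 to 38.8 in control pools and 26.7 to 32.3 in MPLE pools. These markers were blnk, cd79b, pou2af1 and tnfrsf13b, which do not measure plasma cells on their own.

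**Figure D3:**
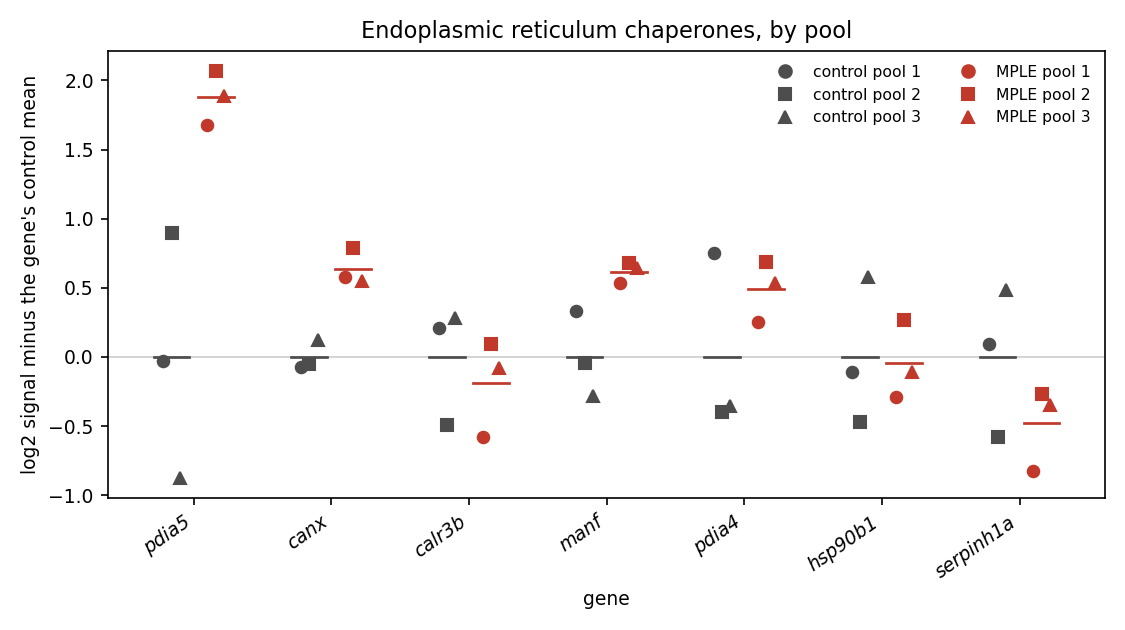
Log2 signal of 7 ER chaperone genes in each pool, less the mean of that gene's control pools (y axis), drawn as for the cytosolic genes. The MPLE pools of pdia5, canx and manf lie above all control pools, and those of calr3b, pdia4, hsp90b1 and serpinh1a overlap with the control pools.

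All 5 chaperonin subunits measured had a change below 0, with a median of -0.30. A change above 0 was found for 0 of the 5, beside 48.5% of all genes. None had an unadjusted p under 0.05. The subunit cct5 was at 6.76, 6.24 and 8.01 in control pools and 5.77, 6.03 and 6.09 in MPLE pools. Every MPLE pool lay below every control pool, and the change was -1.04 (SE 0.46, unadjusted p = 0.0555, adjusted p = 0.299 by limma). The subunit cct8 was at 4.81, 4.15 and 5.96 in control pools and 4.11, 4.33 and 4.24 in MPLE pools, a change of -0.75 (SE 0.45, adjusted p = 0.412 by limma). Control pool 3 was the highest for both, and without it the changes were -0.54 for cct5 and -0.25 for cct8.

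The subunits cct7 and cct2 did not share the high value of control pool 3, and tcp1 had no value there. The level of cct7 was lowest in that pool, at 1.15, 1.07 and 0.36 in control pools and 0.52, 0.52 and 0.63 in MPLE pools. Its change was -0.30, or -0.55 without control pool 3 (unadjusted p = 0.0244 by limma). The level of cct2 was 6.65, 6.14 and 6.55 in control pools and 5.90, 6.60 and 6.44 in MPLE pools, a change of -0.13 with a 95% interval of -0.83 to 0.56. The founding subunit tcp1 was at 6.36 and 5.88 in control pools 1 and 2 and 5.87, 6.24 and 6.13 in MPLE pools, a change of -0.04. Its spot of control pool 3 was flagged as an outlier and was at 6.37 if kept, which would be the highest of its pools.

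Control pool 3 also stood apart for skeletal muscle markers, whose summed level over 7 genes was 20.9, 16.6 and 70.8 in control pools and 8.29, 8.51 and 13.4 in MPLE pools. All 7 had a change below 0, and 5 had an unadjusted p under 0.05. Among these 5, ampd1 was well above background on 2 MPLE arrays and passed the filter through the control arrays only. Of the 12 muscle markers on the array, myoz1 and myoz1a were not well above background on any array. No marker of any list passed the adjusted threshold. The other marker lists held changes on both sides of 0. Of all genes, 10.5% were higher and 4.78% lower at an unadjusted p under 0.05. Of 4 T lymphocyte markers, 2 (cd8a and eomes) were higher at an unadjusted p under 0.05, and the median change was 0.76. The changes of cd3e and gata3 were 0.80 and -0.35. Both eomes and cd3e were well above background on 2 control arrays and passed the filter through the MPLE arrays only. Of 6 liver-type plasma protein genes, 1 (hp) was lower at an unadjusted p under 0.05. Their median was -1.18, and 1 (ttr) had a change above 0. In this list fgg and hpxa passed the filter through the control arrays only, and ttr through the MPLE arrays only. Of 10 neutrophil and macrophage markers, csf3r and cebpb were higher (1.14 and 0.70) and mpx lower (-0.92) at an unadjusted p under 0.05. Of 6 erythroid markers, hba was higher (1.27) and gata1 lower (-0.61). The part of muscle RNA or of these cell types in the values of the chaperone genes was not tested. In the deposited series values, which are not scaled between arrays and in which the median gene was 1.04 higher with MPLE, all 5 subunits had changes above 0 but below that median, from 0.38 to 0.74.

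**Figure D4:**
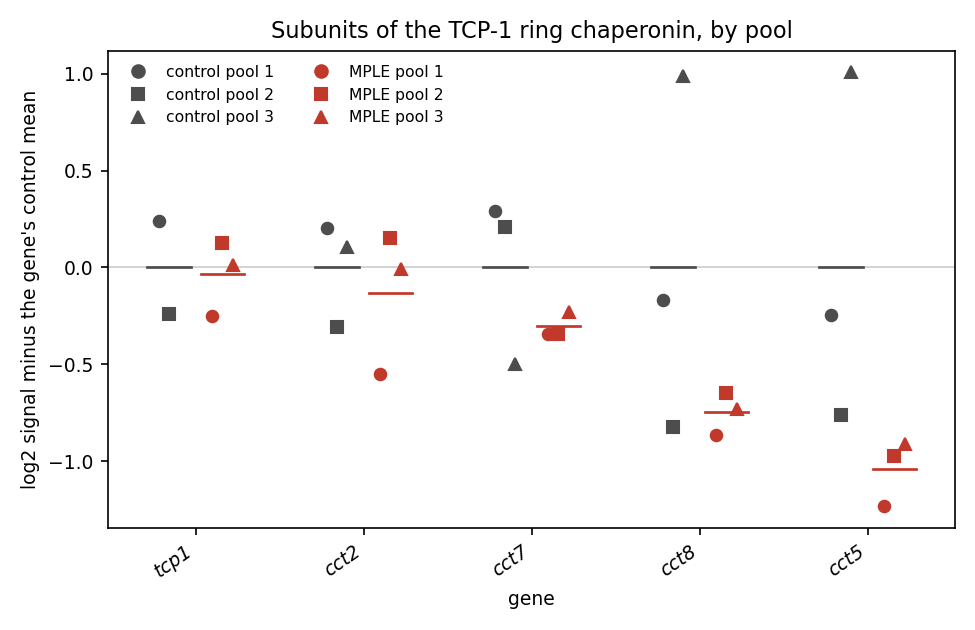
Log2 signal of the 5 chaperonin genes in each pool, less the mean of that gene's control pools (y axis), drawn as for the cytosolic genes. Control pool 3 is about 1 above the control mean for cct8 and cct5, the lowest control pool for cct7 and has no point for tcp1.

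Of the 3 mitochondrial genes tested, dnajc19, a J-domain subunit of the motor that pulls proteins into the matrix, was at 0.61, 1.13 and -1.50 in control pools and 2.03, 1.88 and 1.65 in MPLE pools. Every MPLE pool lay above every control pool, and the change was 1.77 (SE 0.65, unadjusted p = 0.028, adjusted p = 0.231 by limma). Without control pool 3 it was 0.98 (unadjusted p = 0.00861 by limma). The matrix HSP40 gene dnaja3a was at 1.21, 1.23 and 1.66 in control pools and 0.88, 1.10 and 1.01 in MPLE pools. Here every MPLE pool lay below every control pool, with a change of -0.37 (SE 0.25, adjusted p = 0.452 by limma). The change of dnajc30b was -0.01, with a 95% interval of -0.66 to 0.65. Outside the folding chaperones, hspb11, which encodes an intraflagellar transport protein, changed by -0.03.

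Control pools spread more than MPLE pools. The SD among control pools exceeded that among MPLE pools for 30 of the 36 genes (83.3%), beside 85.6% of all genes, and the median SD was 0.44 and 0.20. Taking for each class the median deviation of its genes from their own means, control pool 3 was the highest pool in every class (0.23 cytosolic, 0.29 ER, 0.77 chaperonin, 0.39 mitochondrial). Control pool 2 was the lowest for the cytosolic and ER genes (-0.17 and -0.34), and MPLE pool 1 for the chaperonin and mitochondrial genes (-0.49 and -0.23). These medians rest on 14, 12, 4 and 3 genes with a value in every pool, and no such median over all genes stands beside them. Not every gene followed its class: cct7 (0.36) and dnajc19 (-1.50) were lowest in control pool 3.

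The 14 genes that the filter removed were not tested. Of these, hspa1b, hspb3 and dnajc27 were not well above background on any array, and hspb6 and hspbap1 were so on 1 array. The genes dnajc22, dnajc6 and dnajc11b reached this level on 2 arrays, bag2, dnajb13 and dnajc3b on 3, and hspb1, dnaja2b and dnajc4 on 4. The inducible hspa1b and the muscle-associated hspb3 thus had only an upper bound on both diets, while the small heat shock gene hspb1 was well above background on 2 arrays of each diet.

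Genes that regulate or assist these chaperones were read from lists chosen by function. None of them passed the adjusted threshold. At an unadjusted p under 0.05, 10.5% of all genes were higher and 4.78% lower. Of 13 other HSP90 and HSP70 co-chaperones tested, 0 were higher and 1 was lower at an unadjusted p under 0.05, with a median change of -0.18. That one was fkbp5, an HSP90-binding immunophilin induced by glucocorticoids. It was at 0.56, 0.05 and -0.01 in control pools and -0.82, -0.31 and -0.48 in MPLE pools, without overlap (change -0.73, SE 0.28, adjusted p = 0.25 by limma). The heat shock factor hsf2, the only factor of its list tested, changed by -0.24. Of 7 prefoldin genes and chaperonin partners, 0 had an unadjusted p under 0.05, and the median was 0.03.

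Of 13 other ER folding genes, 1 was higher and 1 lower at an unadjusted p under 0.05, beside 10.5% and 4.78% of all genes. The ER prolyl isomerase gene fkbp2 was at 3.01, 2.21 and 2.46 in control pools and 3.51, 3.74 and 3.64 in MPLE pools, without overlap (change 1.07, SE 0.28, adjusted p = 0.133 by limma). The thioredoxin-related gene tmx2b was at 3.50, 2.99 and 4.47 in control pools and 2.53, 2.82 and 2.76 in MPLE pools, also without overlap (change -0.95, SE 0.40, adjusted p = 0.28 by limma).

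Of 16 genes of the unfolded protein response and ER degradation, 1 was higher and 0 were lower at an unadjusted p under 0.05, with a median of -0.10. Of all genes, 10.5% were higher and 4.78% lower. A change above 0 was found for 6 of the 16. The gene higher was the ubiquitin-conjugating gene ube2j1 of the ER membrane, at 0.07, 0.16 and 0.41 in control pools and 0.79, 0.94 and 0.81 in MPLE pools (change 0.63, SE 0.23, adjusted p = 0.238 by limma). The gene ube2j2 of the same list had a change of -0.70 (unadjusted p = 0.0503 by limma), and its pools did not overlap. That of herpud1 was -1.49 (unadjusted p = 0.0645 by limma), with no value in control pool 1. Of 3 mitochondrial folding and protease genes, 0 had an unadjusted p under 0.05, and the median was 0.15.

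**Figure D5:**
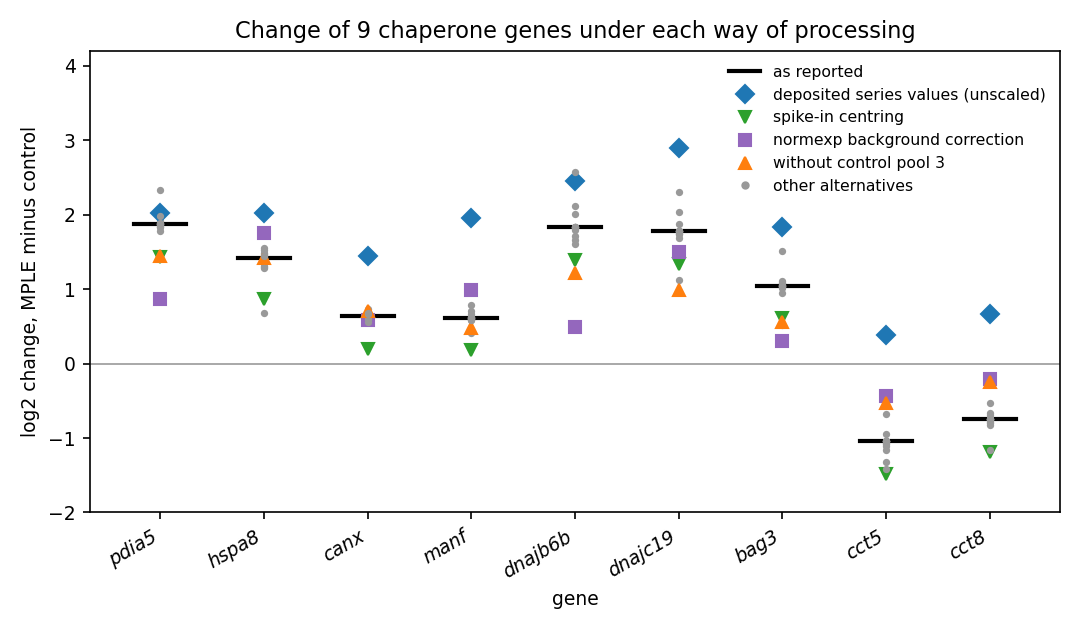
Log2 change (MPLE minus control, y axis) of 9 chaperone genes under each way of processing, with a black line at the reported value and points for the alternatives. The first 7 genes stay above 0 under every alternative run, from 0.18 (manf, spike-in centring) to 2.89 (dnajc19, deposited series values). Both cct5 and cct8 cross 0 in the unscaled deposited series values, in which the median gene was 1.04 higher with MPLE.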

How the data were processed

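Head kidney RNA pools were grouped by their titles in the labels. Per the file headers, the authors read arrays of design 084881 with Agilent Feature Extraction 10.7.3.1 (protocol GE1_107_Sep09). The processed intensity of a spot has its background subtracted and spatial trend removed, array by array, with no scaling across arrays. The deposited series table holds log2 values that equal log2 of each array's background-subtracted intensity within 5e-09. Column medians were 6.31, 7.02 and 5.18 for control pools 1 to 3 and 7.51, 6.23 and 7.12 for MPLE pools 1 to 3. The arrays have 1 colour, so direction needs no dye orientation. The labels do not tie pools to tanks, so tank and diet cannot be told apart.

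The processed intensity was turned to log2 less each array's 75th percentile over spots that are neither controls nor outliers. Feature Extraction marked 6 to 205 spots of an array as outliers, which were dropped, and 0 as saturated, and repeat spots were averaged per probe. Probes detected well above background by all 3 arrays of either diet, with at least 2 values per diet, were tested with limma 3.58.1 (R 4.3.3), with diet as the only term, two-sided. The model was tested on simulated data. The number of arrays limits the precision, and p-values measure the spread between pools, arrays and labelling reactions together.

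Of 42386 probes, 25641 matched a gene of RefSeq assembly Ssal_v3.1, used for names only. No sequence table was used here, so the planned promoter and protein comparisons were not made. Genes named are those at an unadjusted p under 0.05, the 2 highest and 2 lowest changes of each class, all chaperonin genes and a set of textbook members, and members named beside these were chosen after their values were seen. The genes and lists were chosen with earlier results of these data known. Counts of other columns of samples left unused are 0.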

Additional observations from a re-analysis of the deposited data

How the results depend on the processing

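Of 18 alternatives run, the number of chaperone genes past the adjusted threshold differed from 0 under 2. It was 1 (pdia5) with median centring, beside 2.32% of all probes, and 6 with array weights, beside 12.8% of all probes. The filter kept pdia5 through the MPLE arrays only. The pool number entered as a replicate block gave 0 such genes, with 475 of all probes past the threshold. The same-numbered pools did not deviate together (correlations -0.18, -0.34 and 0.08), and no pool correlated best with its own number. Against 108, all probes past the threshold numbered 24 with quantile normalization, 537 with median centring, 14 with spike-in centring, 24 with normexp correction (on median signals, which the files hold in place of means), 0 without the filter on dim probes, 0 in the deposited series values, 2971 with array weights, and 0 to 176 when 1 pool was left out. The cause was not tested. Chaperone genes higher at unadjusted p numbered 2 with spike-in centring (4.02% of all probes were higher) and 2 to 9 without 1 pool (7.15% to 14.9%). Those lower numbered 2 with quantile normalization (7.31% of all probes were lower), 11 with spike-in centring (31.6%), 4 with array weights (14.3%), 0 to 3 without 1 pool (2.66% to 10.6%), and 1 each with normexp (11.1%), the trend with robust variance (5.85%), the block (4.2%), and probes well above background on all arrays (8.55%). Spike-in centring moved the median gene by -0.44 and the deposited values by 1.09, by construction. Class medians under these were -0.39 and 1.19 (cytosolic), -0.39 and 1.37 (ER), -0.75 and 0.46 (chaperonin), and -0.45 and 0.61 (mitochondrial). The mitochondrial median was -0.43 with normexp, and the cytosolic one -0.37 without the filter, which adds dim probes, and -0.14 to 0.19 without 1 pool.

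With array weights, hspa8, dnajb6b, pdia5, canx and dnajc19 passed the adjusted threshold, as did dnajc9 (-0.96). Signs turned for 26 of the 36 genes tested, in 58 of 643 values. In the deposited values this befell dnajc9 (0.083), dnajb1a (0.086), dnajc28 (0.17), dnaja3a (0.22), pdia7 (0.37), cct5 (0.38), tcp1 (0.41), cct7 (0.46), calr3b (0.53), dnajc21 (0.56), hsp7c (0.61), dnajc30b (0.61), cct8 (0.66), serpinh1a (0.68), dnajc3a (0.68), cct2 (0.74), hsp90b1 (0.76), hspb11 (0.87), dnajc5gb (0.99), hsp90ab1 (1.19) and dnajc25 (1.53). It befell hsp90ab1 (0.0074), hsp90b1 (0.047), dnajc30b (0.14), dnajc25 (0.35) and bag5 (-0.0061) with array weights, dnajc30b (0.0001), hsp90b1 (0.041) and hspb11 (0.056) with quantile normalization, and tcp1 (0.012) with median centring. With normexp it befell hspb6l (-0.37), dnajb12a (-0.17), tcp1 (0.10) and hsp90ab1 (0.45), and with spike-in centring bag5 (-0.39), dnajb5 (-0.38), pdia1 (-0.31) and hspb6l (-0.033). When 1 pool was left out, the values ran from -0.25 to 0.062 for hsp90ab1, -0.28 to 0.20 for tcp1, -0.29 to 0.073 for cct2, -0.28 to 0.25 for hsp90b1, -0.15 to 0.18 for dnajc30b, -0.19 to 0.23 for bag5, -0.44 to 0.0067 for calr3b, -0.030 to 0.19 for dnajb5, -0.18 to 0.22 for dnajc25, -0.37 to 0.15 for hspb11 and -0.0089 to 0.26 for pdia1. The 75th percentile over all spots was chosen after seeing the data and gave 79 probes and 0 chaperone genes. Averaging probes of a gene changes nothing, since each chaperone gene has 1 probe. Slide was not a block, since each slide held 1 array.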
